A study of Mus musculus with 2 samples.

Results

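The paraoxonase family comprises the genes Pon1, Pon2 and Pon3, and all 3 were read on the arrays, among 12393 genes named by a probe set of their own. The members were found by their symbol in the platform annotation, which assigned 1 probe set to Pon1, 1 to Pon3 and 2 to Pon2. A total of 0 probe sets named a paraoxonase together with another gene. RNA came from livers of female mice labelled as homozygous for a disrupted apolipoprotein E gene (apoE KO), of the C57BL/6J strain and 2 months old. The mice were fed for 4 weeks a chow with 10% (w/w) olive oil, or the same chow with 10% (w/w) olive oil containing maslinic acid, a triterpene found in olives (diet MAOO; the former is diet OO). The study had 12 mice, 6 per diet, but the series holds 2 arrays, 1 per diet, called the OO array and the MAOO array here. Whether an array carries RNA of 1 mouse or a pool is not stated in the sources used here. No spread between mice can therefore be had, and no difference below has a test or a replicate check.

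Paraoxonases are calcium-dependent enzymes that hydrolyse lactones. PON1 and PON3 are made mainly in the liver. PON1 is secreted and carried in plasma on high-density lipoprotein (HDL), as is PON3 in human plasma. PON1 also hydrolyses the organophosphate paraoxon, from which the family takes its name, and is known for protecting lipoproteins from oxidation. PON2 stays inside cells and is expressed in many tissues. In apolipoprotein E-deficient mice, which develop atherosclerosis on chow, loss of Pon1 is known to aggravate the disease.

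The members lie side by side on chromosome 6 in the order Pon1, Pon3, Pon2, all on the minus strand, so their start regions can be set beside each other. The 250 bases before each start are shown because they differ in the base composition and the short motifs around which promoters are commonly sorted. They are from RefSeq (GRCm38.p6), 5′ to 3′ on the gene's strand, and all 3 members matched the sequence table. Capitals mark matches to GGGCGG (the GC box, bound by Sp1), CCAAT or GCGTG (the core bound by the aryl hydrocarbon receptor), on either strand.
Pon1, chr6:5193947-5194196: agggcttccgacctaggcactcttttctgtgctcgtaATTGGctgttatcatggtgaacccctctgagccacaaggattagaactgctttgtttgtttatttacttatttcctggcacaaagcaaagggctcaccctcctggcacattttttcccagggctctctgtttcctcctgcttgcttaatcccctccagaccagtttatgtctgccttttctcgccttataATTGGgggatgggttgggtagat
Pon3, chr6:5256234-5256483: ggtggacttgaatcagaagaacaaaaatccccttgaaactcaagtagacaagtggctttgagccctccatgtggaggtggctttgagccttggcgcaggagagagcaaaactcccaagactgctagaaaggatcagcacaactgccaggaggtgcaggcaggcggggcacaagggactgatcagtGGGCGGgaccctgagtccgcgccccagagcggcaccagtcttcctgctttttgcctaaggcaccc
Pon2, chr6:5298341-5298590: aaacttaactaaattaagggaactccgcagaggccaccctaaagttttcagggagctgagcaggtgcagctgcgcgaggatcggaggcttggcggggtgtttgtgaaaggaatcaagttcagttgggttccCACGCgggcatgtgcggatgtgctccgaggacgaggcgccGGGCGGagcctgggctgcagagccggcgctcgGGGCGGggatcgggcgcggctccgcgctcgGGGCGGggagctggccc

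The start region of Pon2 was the richest in G and C, at 65.6%, against 56.8% for Pon3 and 47.6% for Pon1, with a median of 52.4% over the 32851 start regions of the table. It held 24 CpG dinucleotides, where Pon3 held 6, the median of all start regions, and Pon1 held 3. The GC box matched 3 times before Pon2, 1 time before Pon3 and 0 times before Pon1, and at least once in 32.7% of all start regions. Pon1 instead held 2 matches to CCAAT, both as the reverse complement ATTGG, a motif present in 33.8% of start regions. The nearer of these ended 19 bases before the start. GCGTG matched 1 time, as CACGC, before Pon2 alone among the members, and in 28.2% of start regions. TATAAA (the TATA box, in 12.4% of start regions) and AGGTCA (a core bound by many nuclear receptors, in 14.0%) matched 0 times in any member. None of the motif letters overlapped those of another motif. These matches describe letters only, and the arrays measured RNA and not binding.

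The values are MAS5 signals, a linear brightness per probe set that the authors scaled to a common mean on each array. Because probe sets differ in how brightly they read the same amount of RNA, signals are compared between the arrays and not between genes. A log2 ratio is that of the MAOO array over the OO array. Signals under a floor of 40.0 on the deposited scale were set to the floor, and a gene was counted as measured where it reached 80.0 on at least 1 array, which 5911 genes did. All 3 paraoxonase genes were measured, each on both arrays.

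Pon1, the HDL-borne enzyme, had a signal of 8790.3 on the OO array and 8011.9 on the MAOO array. The second value was lower by 8.86%, a log2 ratio of -0.13. Pon3, the other member made mainly in the liver, had signals of 231.1 and 251.3, higher by 8.74% on the MAOO array, a log2 ratio of 0.12. Pon2, the intracellular member, read 262.9 and 270.2 with its brighter probe set, higher by 2.78%, a log2 ratio of 0.04. Pon1 was thus lower and Pon2 and Pon3 were higher on the MAOO array, each by less than 10% of its signal.

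The further probe set of Pon2, 1425791_at, designed on another transcript record (BC021887 in place of NM_183308), read 10.2 and 15.1. Both values lay under the floor, so it gives no fold and no second measurement of Pon2. Such a split is common on these arrays. Of 3071 measured genes with several probe sets, 43.0% had a probe set under the floor on both arrays.

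**Figure D1:**
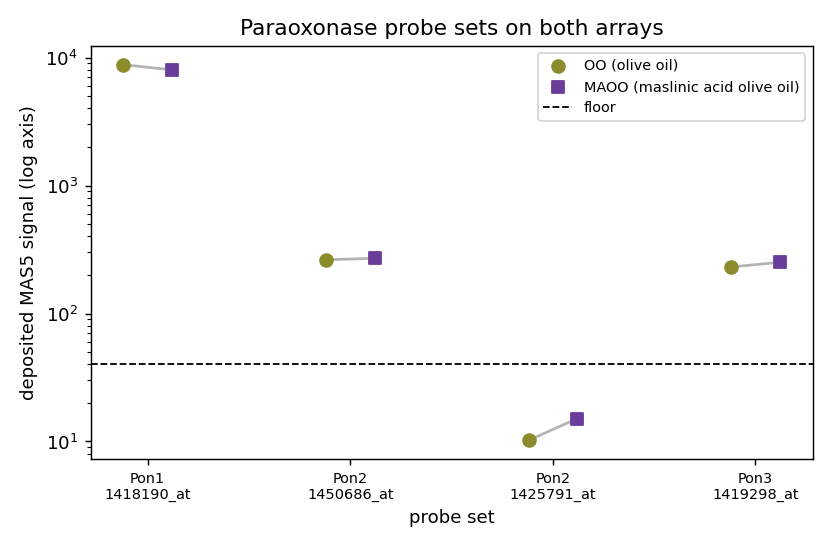
Deposited MAS5 signal (log axis) of each paraoxonase probe set on the OO array (circles) and the MAOO array (squares), with the floor of 40.0 as a dashed line. Both points of Pon1 (8790.3 and 8011.9), of Pon3 (231.1 and 251.3) and of the brighter Pon2 probe set (262.9 and 270.2) lie close together, and the dim Pon2 probe set lies under the floor on both arrays.

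Of the 3 members, 0 differed by at least 1.5-fold in either direction, a difference that 3.05% of the 5911 measured genes showed (1.47% higher, 1.57% lower), and 0 by at least 2-fold, which 0.609% showed (0.305% in each direction). Pon1 was 1.10-fold lower, Pon3 1.09-fold higher and Pon2 1.03-fold higher. Their ratios lay inside the range of the central 95% of measured genes, from -0.48 to 0.49. A log2 ratio at least as far from 0 as that of Pon1 was seen in 46.5% of measured genes, as that of Pon3 in 50.6% and as that of Pon2 in 82.2%.

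The members also stood close to each other. The log2 ratios of Pon1 and Pon3, the most distant pair, differed by 0.25, those of Pon1 and Pon2 by 0.17 and those of Pon2 and Pon3 by 0.08. The only repeat measurement on the arrays is a gene read by several measured probe sets, which share the RNA and the hybridisation. In 1814 such genes the log2 ratios of a gene's probe sets had an SD of 0.23, larger than the ratio of any paraoxonase. The lowest and highest probe sets of a gene lay at least as far apart as Pon1 and Pon3 in 44.0% of these genes. Such probe sets share the RNA, so their disagreement holds no spread between arrays or mice. Whether the opposite signs of Pon1 and Pon3 lie within such a spread was not tested. The disagreement is a loose measure, since it takes the full range over a gene's measured probe sets, dim ones included, while Pon1 is bright.

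The signal of Pon1 put it in a range where most genes were slightly lower on the MAOO array. Measured genes were divided by mean signal into 10 classes. In the brightest class, 591 genes with Pon1 among them, the median log2 ratio was -0.05 and 68.2% of genes lay below 0. Among the 50 brightest genes, which also include Pon1, the median was -0.14, close to the -0.13 of Pon1, and 47 lay below 0. With quantile normalization the ratio of Pon1 was -0.04 and that of the 50 brightest genes -0.01, and with the trend of the ratio on signal removed both were at -0.05. The classes that hold Pon3 and Pon2 had medians of -0.01 each. The ratios of Pon3 and Pon2 stayed between 0.11 and 0.12 and between 0.03 and 0.04 under all 11 alternatives run.

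**Figure D2:**
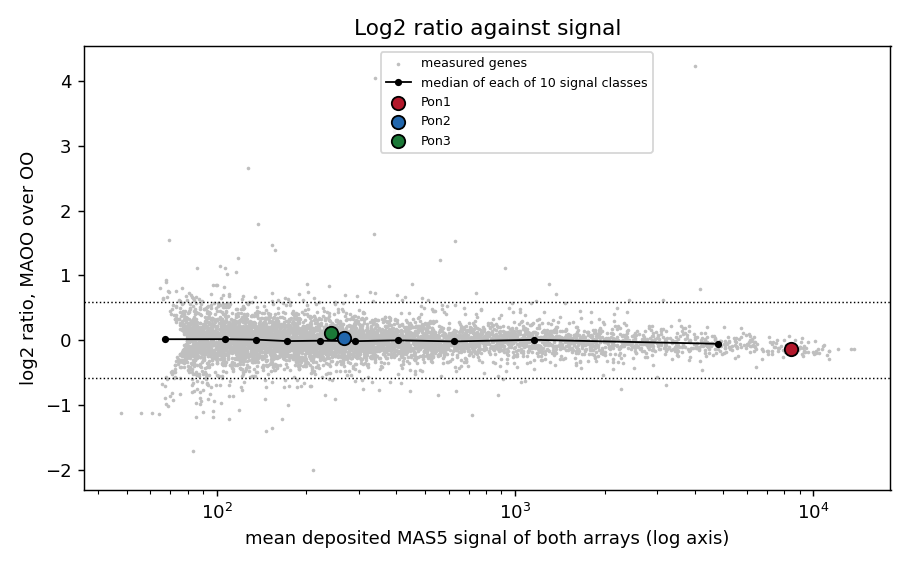
Log2 ratio (MAOO over OO) of each of the 5911 measured genes against its mean signal on both arrays (log axis), with the paraoxonase genes coloured, the median of each of 10 signal classes as a black line and 1.5-fold as dotted lines. Pon1, Pon2 and Pon3 lie within the cloud, and Pon1 lies among bright genes that sit slightly below 0.

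**Figure D3:**
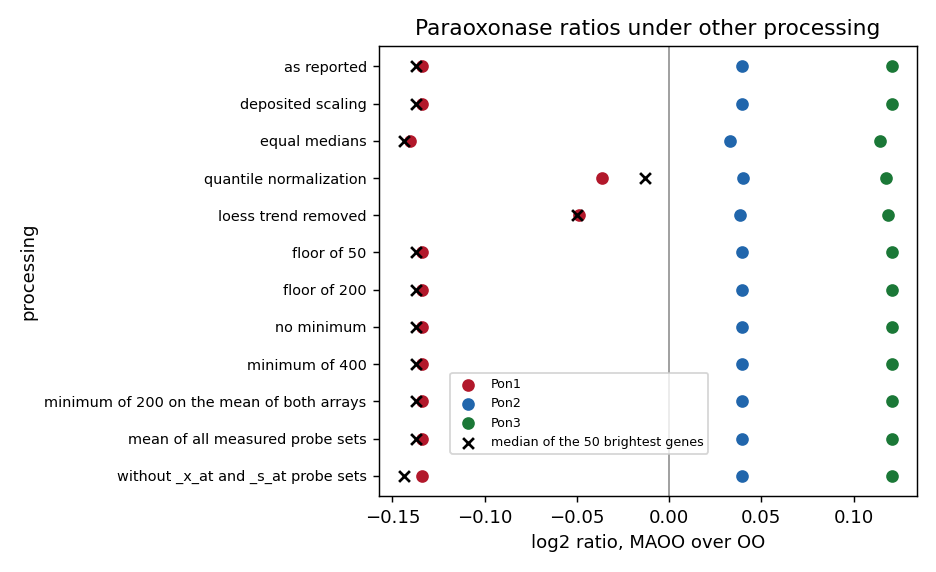
Log2 ratio of Pon1, Pon2, Pon3 and, as crosses, the median of the 50 brightest genes, as reported and under 11 alternatives of processing. Pon2 and Pon3 hardly move, and Pon1 moves with the bright genes from -0.13 to -0.05 and -0.04 under the intensity-dependent scalings.

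The arrays themselves were checked against their labels. Apoe had a signal of 407.7 on the OO array and 7630 on the MAOO array, 18.7-fold more, although both are labelled as knockouts. The MAOO value, set beside the OO value, goes against that label. Whether the probes read RNA that the disruption leaves is not known here. Both Apoe signals lay above the floor of 40.0, and the cause of their difference was not tested. The arrays may differ in genotype as well as diet, so every direction here is between arrays as labelled. The part of such a difference in the paraoxonase ratios was not tested. Of 12 hepatocyte markers 10 were measured, with signals summing to 88107 and 77472, and 9 of the 10 were lower on the MAOO array (median log2 ratio -0.18), led by Cyp2e1 (-0.29) and Ttr (-0.23). Pon1, a hepatocyte product, went the same way. With quantile normalization the hepatocyte median was -0.07, with 8 of 10 lower. The measured hepatocyte markers are bright, and most bright genes were slightly lower on the MAOO array. Fewer hepatocytes, less RNA per hepatocyte and this general lean of bright genes cannot be told apart here. Their part in the ratio of Pon1 was not tested. The marker lists of other cells went different ways. Macrophage markers had a median of 0.03 over 11 genes (sums of 12098 and 12057), 6 higher and 5 lower. Among them Marco lay at -2.0 and C1qb at 0.43 (3 probe sets, from 0.10 to 0.43). Endothelial markers had a median of -0.12 over 6 genes (2707 and 2461), all 6 lower, with Kdr at -0.49 and Cdh5 at -0.32. Stellate and matrix markers had a median of 0.24 over 6 genes (3634 and 3686), 5 higher and 1 lower, with Acta2 at 0.35 and Lum at 0.34. The lower one was Dcn (-0.19), the brightest of the 6, named after its values were seen. Few of the remaining markers were measured: Ighm (1.54, with 3 probe sets ranging from 0.49 to 1.54) and Ptprc (-0.14) of the lymphocyte list, Alas2 (0.68) of the erythroid list, Cela1 (-0.54) of the exocrine pancreas list, Fabp4 (0.43) of the adipocyte list and 0 of the 4 cholangiocyte markers on the arrays.

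HDL is the carrier of PON1 in plasma, and the genes of HDL proteins and of HDL remodelling leaned the way of Pon1. Of 22 listed genes 19 were measured, of which 13 were lower and 6 higher on the MAOO array, with a median log2 ratio of -0.14 against -0.01 over all measured genes. With quantile normalization 10 were lower and 9 higher and the median was -0.0045. With the signal trend removed 12 were lower and 7 higher and the median was -0.03. A difference of 1.5-fold was reached by 2 genes upward and 0 downward, against 1.47% and 1.57% of all measured genes. The upward ones were Pltp, which encodes the phospholipid transfer protein that enlarges HDL, with signals of 2466.6 and 3787.3 (log2 ratio 0.62, and 0.44 on its other probe set), and Apoa4, with 1902.7 and 2914.9 (0.62, and 0.998 on its other probe set). Of the remaining named members, Abcg1, a cholesterol exporter to HDL, had signals of 177.5 and 127.8 (-0.47). Pla2g7, the lipoprotein-associated phospholipase that hydrolyses oxidised phospholipids, had signals of 68.9 and 84.9 (0.30, and 0.09 with a floor of 200 after scaling).

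Apoa1, the main protein of HDL and the one on which PON1 activity is known to depend, was the listed gene nearest to Pon1. Its signals were 14330.1 and 13029.6, a log2 ratio of -0.14, within 0.0035 of that of Pon1. The 4 measured probe sets of Apoa1 ranged from -0.18 to -0.14, and the brightest, used here, had the highest ratio. The nearness to Pon1 thus rests on that probe set. The sign of Apoa1 turned with quantile normalization, to 0.02, while Pon1 stayed at -0.04. Hpx, which encodes the haem-binding hemopexin, and the carboxylesterase gene Ces2a followed, also at -0.14. For Pon3 the nearest of the 83 measured genes of the pathway lists were the acute phase genes Saa1 (0.12), whose product displaces apolipoprotein A-I from HDL in inflammation, and Apcs (0.11), then the cytokine signalling inhibitor Socs3 (0.10). The other measured probe set of Saa1 gave 0.0062, so its nearness to Pon3 rests on the brighter probe set. For Pon2 they were Rela (0.04), Orm1 (0.04) and the bile acid receptor gene Nr1h4 (0.05). Likeness here is the difference of the log2 ratio over 2 arrays, and it singles out little. Within 0.05 of Pon1 lay 1025 measured genes (17.3%), of Pon3 910 and of Pon2 1214.

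Other esterases and lactonases were listed together with the epoxide hydrolase genes Ephx1 and Ephx2. The median log2 ratio was -0.02 over the 16 measured of 27 listed genes, 10 lower and 6 higher. With quantile normalization the counts were 8 and 8 and with the signal trend removed 7 lower and 9 higher. None of the 16 reached 1.5-fold, against 3.05% of all measured genes. The 4 members farthest from 0 were carboxylesterases, all higher on the MAOO array: Ces1g (0.45), Ces2e (0.44), Ces2g (0.35) and Ces1d (0.31, with 3 probe sets ranging from -0.05 to 1.98). The other measured carboxylesterases were lower: Ces1c (-0.19), Ces2a (-0.14), Ces1e (-0.04) and Ces1f (-0.0086), so the family went both ways. Rgn, named after its values were seen, encodes regucalcin, a lactonase with the same propeller fold as the paraoxonases. Its signals were 7232.1 and 7112.4, a log2 ratio of -0.02.

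Among transcription factors and receptors linked in the literature to Pon1 expression, 13 of 21 were measured, 7 higher and 6 lower, with a median of 0.02. A difference of 1.5-fold was reached by 0 of these, against 3.05% of all measured genes. With the mean of all measured probe sets 6 were higher and 7 lower and the median was -0.12. Sp1, whose product binds the GC box shown above, had signals of 557.8 and 406.6, a log2 ratio of -0.46. Ppara, the fatty acid-sensing nuclear receptor that fibrates activate, had signals of 1541.4 and 1186.8 (-0.38), and Srebf1, a regulator of fatty acid synthesis, 1790.7 and 1402.6 (-0.35). Fgfr4, the receptor through which bile acids are known to lower Pon1, had signals of 205.9 and 257.0 (0.32). Ahr, named after its values were seen, had signals of 674.2 and 685.6 (0.02).

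Antioxidant enzymes, the group with which paraoxonases are usually discussed, had a median of -0.06 over 20 of 23 listed genes, 12 lower and 8 higher, with 1 at least 1.5-fold lower and 0 at least 1.5-fold higher, against 1.57% and 1.47% of all measured genes. The exception was Hmox1, the inducible haem oxygenase gene, at 129.9 and 37.2, where the lower value lies under the floor, so that it was at least 3.25-fold lower. The quinone reductase gene Nqo1, at 68.2 and 98.3, had a ratio of 0.53, the plasma glutathione peroxidase gene Gpx3, at 76.6 and 108.2, one of 0.50, and Gclc, of glutathione synthesis, one of -0.26 (-0.04 on its other probe set). Hmox1, Nqo1 and Gpx3 are dim, and with a floor of 200 in place of 100 after scaling they lay at -0.70, 0.30 and 0.43. With the mean of all measured probe sets the counts were 10 and 10.

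Inflammation is known to lower hepatic Pon1 while it raises serum amyloid A. Of 20 inflammatory and acute phase genes 17 were measured, 9 higher and 8 lower, with a median of 0.04, and with quantile normalization 12 were higher and 5 lower. With _x_at and _s_at probe sets left out, 7 of 15 were higher and 8 lower, with a median of -0.01. The chemokine gene Cxcl1, at 115.1 and 191.1, had a log2 ratio of 0.73 and the lipocalin gene Lcn2, at 330.8 and 523.0, one of 0.66. The cytokine gene Il1b, at 102.3 and 65.0, had one of -0.65 (-0.35 with a floor of 200 after scaling), and Nfkbia, the NF-kappaB inhibitor gene, one of -0.37. Here 2 genes were at least 1.5-fold higher and 1 lower, against 1.47% and 1.57% of all measured genes. The serum amyloid A genes of the list went both ways: Saa1 0.12 (0.0062 on its other probe set), Saa2 0.05 and Saa3 -0.19. Saa2 and Saa3 were named after their values were seen. Saa1 and Saa2 belong to this list and to the HDL list, and Apoa1, Apoa2 and Ttr to the HDL and hepatocyte lists, and Hnf4a to the regulators and the hepatocyte markers.

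**Figure D4:**
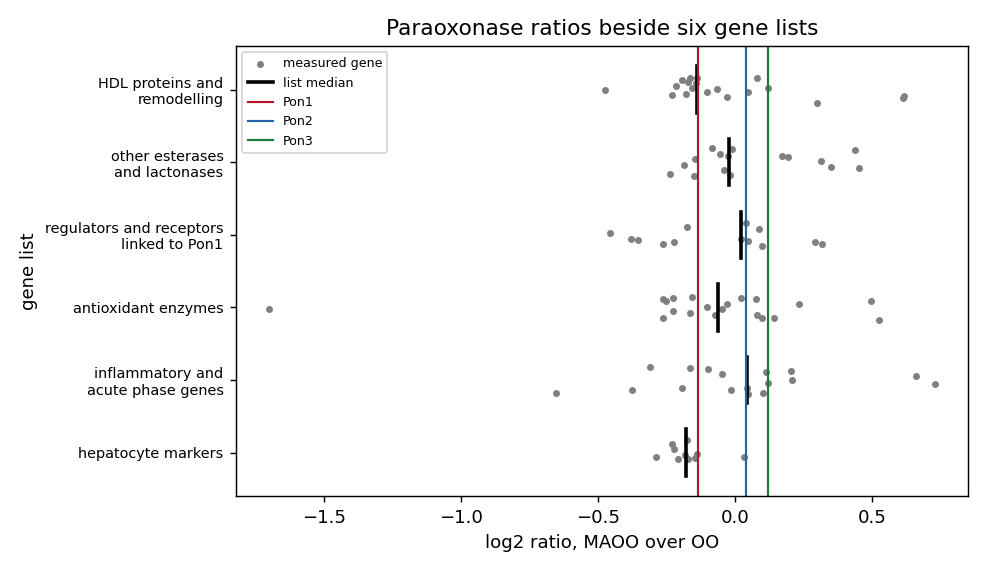
Log2 ratio (MAOO over OO) of every measured gene of 5 pathway lists and of the hepatocyte markers, 1 point per gene, with list medians as black bars and the paraoxonase genes as vertical lines. The line of Pon1 (-0.13) runs through the HDL proteins (median -0.14) and beside the hepatocyte markers (-0.18). Those of Pon2 and Pon3 lie above 0, as do the medians of the regulators (0.02) and of the inflammatory and acute phase genes (0.04). List medians depend on the processing, and that of the HDL list was -0.0045 with quantile normalization. Values of Hmox1 (leftmost) are bounded by the floor.

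Neighbouring genes gave little to compare. Of the 5 annotated genes on each side of the paraoxonase genes, 4 of the 10 are annotated as protein-coding, 2 were named by a probe set of their own and 1 was measured. This was Pdk4, which encodes a kinase that restrains pyruvate oxidation in fasting. It read 203.7 and 210.3, a log2 ratio of 0.05. Asb4 read 6.4 and 15.3, under the floor.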

How the data were processed

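Total liver RNA was labelled as biotinylated cRNA and hybridised to 1-colour Affymetrix arrays, per the labels' protocols. The deposited values are intensities per probe set on a linear scale, which the authors obtained with MAS5 according to the submitters' processing notes. Its version and settings are not stated in the sources used here. The 22690 intensities per array had a 2% trimmed mean of 200.1 on both arrays. They were rescaled to 500 (a factor of 2.50), values under 100 were set to 100 and genes reaching 200 on an array were called measured. Under the floor lay 48.4% and 48.2% of probe sets on the OO and MAOO arrays. Detection calls were not used here. Control probe sets and those naming several genes were left out, and the probe set of highest mean signal stood for a gene. Signals are printed on the deposited scale.

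Members and lists were chosen with earlier results of these data known. Named genes are every paraoxonase probe set, measured neighbours, the 4 members of each pathway list and the 2 of each marker list farthest from a log2 ratio of 0, the 3 listed genes nearest to each paraoxonase, and Apoe. Gene order came from the GRCm38.p6 table. Alternatives were 4 scalings, other floors and minimums, the mean of a gene's probe sets, and leaving out _x_at and _s_at probe sets. The steps were tested on simulated data with planted differences far larger than those of the paraoxonases, so that test does not bear on the latter. Software was Python 3.11.15, pandas 2.3.3, scipy 1.17.1 and statsmodels 0.14.6. With 1 array per diet, precision is limited by their number, and no interval can be given.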

Additional observations from a re-analysis of the deposited data

How the results depend on the processing

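No paired analysis was possible because there is 1 array per diet, and no array could be left out. Over the 11 alternatives Pon1 ranged from -0.14 to -0.04, Pon2 from 0.03 to 0.04 and Pon3 from 0.11 to 0.12 on the log2 scale. None of these turned in sign, and 0 of the 3 reached 1.5-fold under any of them. For 8 of the 11 alternatives little could move, since they touch dim genes, genes with several measured probe sets or the nearly equal array means. With a floor of 200, 59 genes were at least 1.5-fold lower in place of 93 and 7 at least 2-fold lower in place of 18. With a minimum of 400, which left 4168 measured genes, 45 were at least 1.5-fold higher in place of 87, 40 at least 1.5-fold lower and 7 at least 2-fold lower. The median of the HDL list ranged from -0.14 to -0.0045. That of the esterases turned to 0.01 with quantile normalization and 0.02 with the signal trend removed. That of the regulators turned to -0.12 with the mean of all probe sets, and that of the inflammatory genes to -0.01 without _x_at and _s_at probe sets. The cause of these turns was not tested.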

Other observations

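Some genes of the lists were read very differently by probe sets of the same gene, and are given as values, chosen after they were seen. Ces1d, a carboxylesterase gene, had signals on the OO and MAOO arrays of 3361.5 and 3255.7 with 1449081_at and of 3157.4 and 3922.3 with 1435370_a_at. With 1435371_x_at, of a kind that can read several transcripts, it had signals of 270.3 and 1068.9, a log2 ratio of 1.98. Prdx4, a peroxiredoxin gene of the endoplasmic reticulum, had signals of 1453.3 and 1243.6 with 1416167_at (-0.22), of 487.5 and 1153 with 1416166_a_at (1.24) and of 176.5 and 250.2 with 1435731_x_at (0.50). Pon1 and Pon3 have a single probe set each, so no such check exists for them.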
